A study of Homo sapiens with 6 samples.

Results

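The genes described here are 9 genes tied to the transcription factor p53. They are MDM2, MDM4, SESN1, TP53INP1, ZMAT3, RRM2B, FDXR, AEN and PLK2, taken by symbol from the 19223 gene symbols of the deposited RNA-seq table. Apart from MDM4, a partner and inhibitor of p53, they are known as its direct targets. A gene is represented by whichever of its transcripts had the highest mean of all libraries, and its other listed transcripts are described as well. The RNA is from LoVo, a human colorectal adenocarcinoma cell line, either as untreated Control or treated with DCC-2036 (rebastinib), an inhibitor of tyrosine kinases. Each group has 3 libraries. The dose was 2.5 μM, and the labels give 48 h of exposure, whereas a figure legend of the paper gives a shorter exposure. No source states that the libraries of a group came from separate cultures, so the p-values measure the spread between these libraries, which may be technical.

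The labelled cell type was compared with its markers. EPCAM (4524 to 5961 over the 6 libraries), CDH1, KRT8 and KRT18, which mark epithelial cells, were all above 1000, and CDX2, an intestinal transcription factor, lay between 213 and 365. Of the 12 colorectal epithelial markers, 5 were under 10 in every library, namely CDH17, CDX1, VIL1, LGALS4 and CEACAM5, and CDX1 was listed at 0 in all of them. CEACAM5, which encodes carcinoembryonic antigen, reached at most 0.905. Several markers of intestinal epithelium were therefore low or at 0 in RNA labelled as LoVo. CDH1 (log2 fold change 1.10) and KRT8 (0.84) were called higher with DCC-2036 and KRT20 (-1.15) lower. With no filter on low values, or without Control replicate 1 or 3, 0 of these epithelial markers were called lower. Without Control replicate 1, 2 or 3 or DCC-2036 replicate 2, 1 was called higher. Of 14 fibroblast, endothelial and immune markers, 3 passed the filter on low values. COL1A1 was among these (353 to 520.1), 7 markers were under 10 in every library, and the immune marker PTPRC was listed at 0. Their part in the results was not tested.

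As background, p53 is kept low in unstressed cells by MDM2, a ubiquitin ligase that marks it for degradation, and by the related protein MDM4, which masks its activation domain. DNA damage and other stress release p53 from this control. It then binds response elements in the genome and raises RNA of genes for cell cycle arrest, DNA repair, metabolism and cell death, among them MDM2 itself, which closes a feedback loop. It also raises the CDK inhibitor p21, through which the DREAM complex represses many cell cycle genes.

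The response element of p53 is built from a pair of half-sites, and promoter sequence is shown for the members in which a half-site, or a pair with mismatches, was found. RefSeq promoter windows of 300 bases, from 250 bases before to 50 bases after a transcription start (GRCh38.p14), were matched by symbol for 7 members, with 14 windows in all. They were searched for the p53 half-site consensus of 10 bases without mismatch, which reads alike on either strand, and for a full site of 20 bases with the half-sites adjoining and at most 2 mismatches. A half-site occurred in 6.63% of all 35116 windows and a full site in 0.649%, against 4 and 3 of the 14 windows of the members. By gene, 2202 of 27305 had a half-site and 224 a full site. In the 57 windows of other p53 targets, the shares were 7.02% and 5.26%. MDM2 and AEN had a full site, and AEN, FDXR, SESN1 and PLK2 had a half-site. In the sequences that follow, capitals mark the match, and each stretch of 60 bases lies before the start of its window's transcript. MDM2 is shown at chr12:68808903-68808962 on the plus strand, AEN at chr15:88621280-88621339 on the plus strand, FDXR at chr17:74872995-74873054 on the minus strand, SESN1 at chr6:109009003-109009062 on the minus strand and PLK2 at chr5:58460184-58460243 on the minus strand.
MDM2: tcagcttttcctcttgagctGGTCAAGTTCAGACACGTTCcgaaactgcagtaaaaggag
AEN: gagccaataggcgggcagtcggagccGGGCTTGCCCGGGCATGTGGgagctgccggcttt
FDXR: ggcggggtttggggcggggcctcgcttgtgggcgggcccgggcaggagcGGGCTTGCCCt
SESN1: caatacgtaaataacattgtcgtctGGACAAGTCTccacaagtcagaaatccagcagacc
PLK2: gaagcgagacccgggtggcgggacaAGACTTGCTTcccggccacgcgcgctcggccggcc
The windows of MDM4 and ZMAT3 held neither match. A match describes letters in a window and is no evidence of binding, and p53 elements are known to lie in introns and farther away as well.

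Against Control, ZMAT3 and FDXR were higher with DCC-2036 and AEN was lower, and no call was made for MDM2, RRM2B, PLK2, MDM4, TP53INP1 and SESN1 (limma on log2(value + 1), two-sided, called at a Benjamini-Hochberg adjusted p under 0.01 over all 12725 genes tested). All 9 members passed the filter on low values, which asks for 10 or more in 3 or more libraries. Thus 2 of the 9 were higher and 1 was lower, where 19.2% of all tested genes were higher and 22.7% were lower. The DCC-2036 and Control values did not overlap in 6 of the 9 members, against 71.1% of all tested genes. Their median log2 fold change was 0.10, and that of all tested genes was -0.09. An exact permutation test of a single gene cannot give a p-value under 0.1 with 3 libraries against 3, and 6 of the members reached that value. Since the RNA came from bulk cultures, fewer cells that express a gene and less RNA per cell cannot be told apart.

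ZMAT3, which encodes a zinc finger protein that binds RNA, had the largest change of the 9. Its values were 375, 355 and 321 in Control and 1169, 1524 and 1934 with DCC-2036. Every DCC-2036 library was far above every Control library, and their spread (SD 383, n = 3) was wider than that of Control (SD 27.4, n = 3). The fold change was 4.31 (log2 2.11, standard error 0.19, 95% confidence interval 1.64 to 2.57, adjusted p = 0.00045). This call did not depend on any single library, and the log2 fold change lay between 1.93 and 2.29 when each library was left out in turn.

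FDXR encodes ferredoxin reductase, the mitochondrial enzyme that passes electrons to ferredoxins for steroid and iron-sulfur cluster synthesis. In Control its values were 739.8, 897 and 849, and with DCC-2036 they were 1223, 1199 and 1269.9. The DCC-2036 libraries were tightly grouped above Control, where replicate 1 was the lowest. The fold change was 1.49 (log2 0.57, standard error 0.11, 95% confidence interval 0.31 to 0.84, adjusted p = 0.0050). The call was lost without Control replicate 1 (adjusted p = 0.0199), Control replicate 2 (0.0147), Control replicate 3 (0.0201) or DCC-2036 replicate 2 (0.0203). It was also lost when all libraries were scaled to equal totals (adjusted p = 0.0208) and with no filter on low values (adjusted p = 0.0121), while the direction stayed.

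AEN encodes an exonuclease that degrades DNA during apoptosis. It had 1949, 1983 and 2077 in Control and 1326, 1448 and 1566 with DCC-2036. Every DCC-2036 library was lower than every Control library, opposite in direction to ZMAT3 and FDXR. The fold change was 0.721 (log2 -0.47, standard error 0.11, 95% confidence interval -0.73 to -0.22, adjusted p = 0.0088). Leaving out Control replicate 1, 2 or 3 gave adjusted p-values of 0.0290, 0.0366 and 0.0393, and leaving out DCC-2036 replicate 1 or 2 gave 0.0141 and 0.0354, each past the limit. With median-of-ratios scaling the adjusted p was 0.0243, and with no filter on low values it was 0.0195. The direction was the same in each of these fits.

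**Figure D1:**
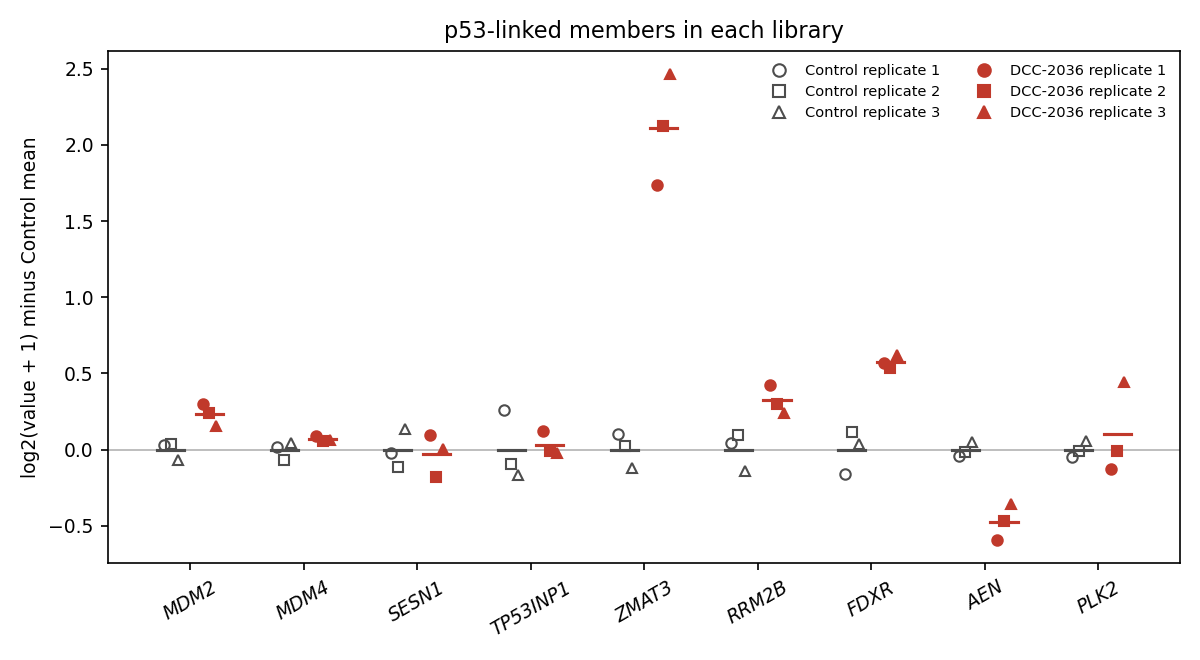
Values of the 9 members in each of the 6 libraries, as log2(value + 1) minus the Control mean of the same gene. Open grey symbols are Control, filled red symbols are DCC-2036, shapes give the replicate number and bars are group means. ZMAT3 lies far above Control in every DCC-2036 library (log2 fold change 2.11), FDXR lies above (0.57) and AEN below (-0.47), and for PLK2 DCC-2036 replicate 3 stands apart from the other libraries.

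Among the negative regulators, MDM2 was at 2155, 2164 and 2007 in Control and 2591, 2491 and 2346 with DCC-2036. Each DCC-2036 library was above each Control library, by a margin that is small next to the level. The log2 fold change of 0.23 (standard error 0.10, 95% confidence interval -0.00 to 0.47, adjusted p = 0.0786) was not called, and its interval includes 0. At equal totals it was 0.03 (adjusted p = 0.816), and with median-of-ratios scaling 0.30 (adjusted p = 0.0317). MDM4, the other p53 inhibitor, had 1405, 1323 and 1431 in Control and 1478, 1442 and 1451 with DCC-2036. The groups did not overlap, yet the lowest DCC-2036 value was only slightly above the highest Control value, and they did overlap in other transcripts of MDM4. Its log2 fold change was 0.07 (95% confidence interval -0.15 to 0.29, adjusted p = 0.516).

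RRM2B, the p53-inducible small subunit of ribonucleotide reductase, which supplies deoxynucleotides outside S phase, had 759.8, 789 and 668 in Control. With DCC-2036 it had 991, 909 and 872, all above Control. The log2 fold change of 0.32 (standard error 0.11, 95% confidence interval 0.05 to 0.60) had an adjusted p of 0.0438 and was not called. At equal totals it was 0.13 (adjusted p = 0.435), and with median-of-ratios scaling 0.39 (adjusted p = 0.0192).

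SESN1 and TP53INP1 act in the stress response. The first encodes a sestrin, a restraint on mTORC1 signalling, and SESN1 had 122, 115 and 136 in Control and 133, 109 and 124 with DCC-2036. TP53INP1 encodes a nuclear protein that promotes p53 activity and takes part in autophagy. Its values were 146, 114 and 108 in Control and 133, 121 and 119.7 with DCC-2036. In both genes the groups overlapped, with log2 fold changes of -0.03 for SESN1 (95% confidence interval -0.32 to 0.27) and 0.03 for TP53INP1 (95% confidence interval -0.31 to 0.37). The intervals are wide next to these values, so a small change in either direction was not detectable. At equal totals they were at -0.22 and -0.17, and neither was called.

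PLK2 encodes a polo-like kinase of the centrosome. It had 1489, 1534 and 1599 in Control and 1408, 1532 and 2098 with DCC-2036. DCC-2036 replicate 3 alone was above Control, and the other DCC-2036 libraries were within or below its range. The log2 fold change was 0.10 (standard error 0.17, 95% confidence interval -0.29 to 0.50, adjusted p = 0.604), and without DCC-2036 replicate 3 it was -0.07.

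In order of log2 fold change the members ran from ZMAT3 (2.11) through FDXR (0.57), RRM2B (0.32), MDM2 (0.23), PLK2 (0.10), MDM4 (0.07), TP53INP1 (0.03) and SESN1 (-0.03) to AEN (-0.47). The interval of ZMAT3 lay wholly above that of every other member. Those of FDXR, RRM2B, MDM2 and PLK2 overlapped each other, and the interval of AEN overlapped those of SESN1, TP53INP1 and PLK2 only. The scaling matters for the small changes. Scaling to equal column totals moved the median log2 fold change of all tested genes by -0.20, from -0.09 to -0.29, and moved the split of calls from 2442 higher and 2887 lower genes to 1669 and 3440. Relative to the median of all genes as deposited, the log2 fold change was 2.20 for ZMAT3, 0.67 for FDXR and -0.38 for AEN. Under equal totals, ZMAT3 (1.91) stayed higher and AEN (-0.67) lower, and MDM4 (-0.13), PLK2 (-0.10) and TP53INP1 (-0.17) changed sign without being called.

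The deposited table lists 32 transcripts of the 9 genes, all above the filter, and they were also tested one by one among 32323 transcripts. Of these 32, 9 were higher and 1 was lower, where 19.7% of all tested transcripts were higher and 22.4% were lower. The 9 were the 7 transcripts of FDXR, with log2 fold changes of 0.57 to 0.61, and the 2 of ZMAT3, with 2.09 and 2.11. AEN has 1 listed transcript, which was lower. Transcripts of 1 gene share reads, so they are not separate measurements. The 2 ZMAT3 transcripts had nearly equal Control means of 350.4 and 353. In MDM2 the 5 transcripts ranged from 0.17 to 0.23 in log2 fold change, and in each of them the groups did not overlap. The 7 transcripts of MDM4 ranged from 0.01 to 0.07, and the groups did not overlap in 2 of them. Over all 32 transcripts of the members, the groups did not overlap in 20. The share was 71.1% for all tested genes, and none is given here for all tested transcripts. The range was from 0.29 to 0.32 in the 3 transcripts of RRM2B and from -0.04 to -0.03 in the 3 of SESN1. TP53INP1 and PLK2 have 2 each, at 0.03 and 0.08 and at 0.10 and 0.11. Thus no gene had transcripts of opposite sign. Levels are not compared between genes, because the values are not given per length.

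**Figure D2:**
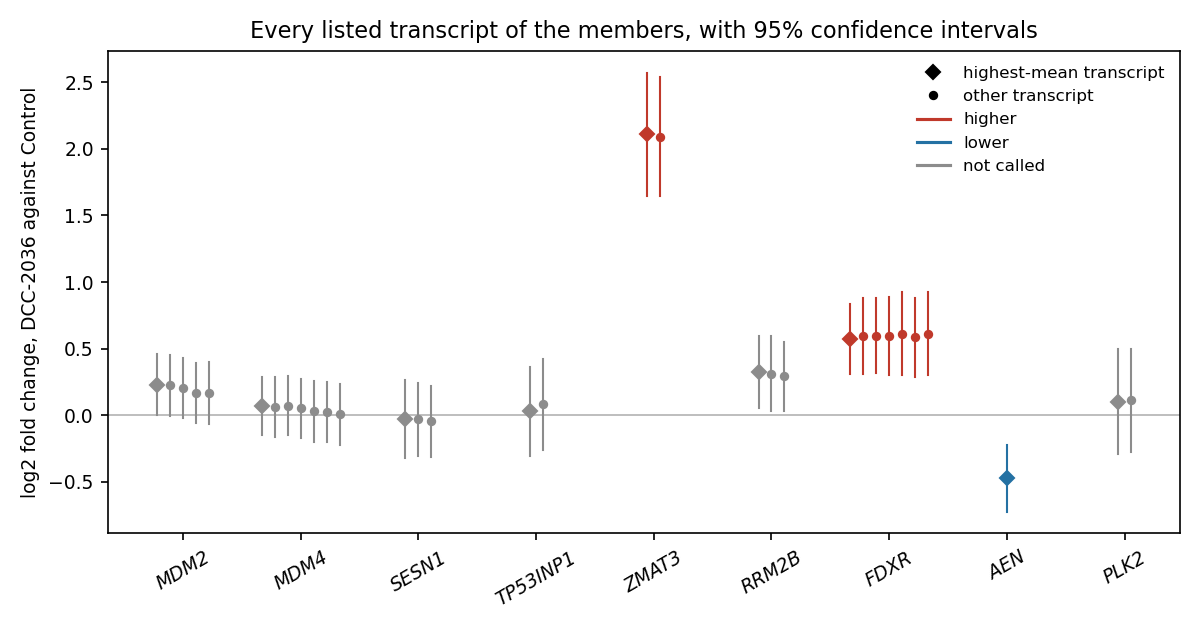
log2 fold change (DCC-2036 against Control, 3 libraries each) of the 32 listed transcripts of the members, with 95% confidence intervals from the fit of all 32323 transcripts. Diamonds mark the transcript with the highest mean, and red and blue mark transcripts called higher or lower. Transcripts of 1 gene lie close together, from 2.09 to 2.11 in ZMAT3 and from 0.57 to 0.61 in FDXR.

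In the annotation (GENCODE 29), exons of 7 members overlap no exon of another gene. Exons of MDM2 overlap an antisense gene and a processed pseudogene, and exons of SESN1 overlap an antisense gene. Whether reads were assigned by strand is not given in the sources used here, so reads of MDM2 and SESN1 cannot be told apart from those of their partners in these stretches.

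By profile over the 6 libraries, the 5 tested genes nearest to MDM2 were SUCLA2, ERBIN, SMU1, PAFAH1B1 and CLPX, with root mean square distances of 0.03 to 0.04 on the log2 scale after centring on the Control mean. Their log2 fold changes lay between 0.22 and 0.25. SUCLA2, the nearest, had 926, 936 and 900.1 in Control and 1089, 1093 and 1044 with DCC-2036. For PLK2 the nearest included RHBDF1, ATXN1L, KLHL9 and FKBP2, at distances of 0.03 to 0.06. RHBDF1 had 211, 212 and 237 in Control and 201, 218 and 296 with DCC-2036, so its replicate 3 was likewise the highest.

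Of 49 other p53 target genes, 48 have a row and 43 were tested. Among these 43, 5 were higher (11.6%) and 13 were lower (30.2%), with a median log2 fold change of -0.05, against 19.2%, 22.7% and -0.09 for all tested genes. The genes that were higher were SESN2, a stress-induced sestrin, SUSD6, DRAM1, a lysosomal protein of autophagy, SFN, the 14-3-3 sigma protein of the G2 checkpoint, and PERP, a desmosomal protein. SESN2 went from 383, 405 and 397 to 1201, 1308 and 1326, which is 1.69 on the log2 scale (standard error 0.10, adjusted p = 0.00019). SUSD6 (1.36), DRAM1 (1.16) and SFN (1.12) followed. The lowest called genes were PLK3, a polo-like kinase, POLH, the translesion polymerase eta (-1.27), BTG2, an antiproliferative factor (-1.23), and CES2, a carboxylesterase (-1.13). PLK3 went from 497, 548 and 525 to 123, 107 and 159, which is -2.02 on the log2 scale (standard error 0.16, adjusted p = 0.00030). BAX, an effector of apoptosis, was lower as well (-1.08), and so were the damage recognition genes DDB2 (-0.81) and XPC (-0.90). The count of 18 called genes fell to 10, 9 and 9 without Control replicate 1, 2 or 3. It was 9 without DCC-2036 replicate 2, and it rose to 23 and 22 without DCC-2036 replicate 1 or 3. Without DCC-2036 replicate 1, 9 were higher and 14 lower. In the same order of fits, the 5329 calls among all tested genes became 2647, 2514, 2517, 2636, 6182 and 5740.

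CDKN1A, which encodes p21, had 1248, 1257 and 1359 in Control and 2180, 2163 and 1579 with DCC-2036. All DCC-2036 libraries were above Control, replicate 3 least so, and the log2 fold change of 0.60 (95% confidence interval 0.23 to 0.97, adjusted p = 0.0142) was not called. GDF15, a secreted stress cytokine, had a log2 fold change of 0.72 (adjusted p = 0.0162) and GADD45A, a damage-inducible growth arrest gene, one of 0.95 (adjusted p = 0.0239). Neither was called. For the BH3-only genes BBC3 and PMAIP1 the values were 0.15 and 0.38, with adjusted p-values of 0.538 and 0.337. Other uncalled targets went the other way, among them TNFRSF10A (-1.13, adjusted p = 0.0143) and TNFRSF10B (-0.86, adjusted p = 0.0231). CMBL (-0.59, adjusted p = 0.0186) and ACER2 (-0.58, adjusted p = 0.0285) did so too. At an unadjusted p under 0.05 by limma, 12 of the 43 were higher and 18 lower, and of all 12725 tested genes 3887 were higher and 4590 lower. The untested genes TP53AIP1, TNFRSF10C, EDA2R, SPATA18 and TRIM22 were under 10 in every library.

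**Figure D3:**
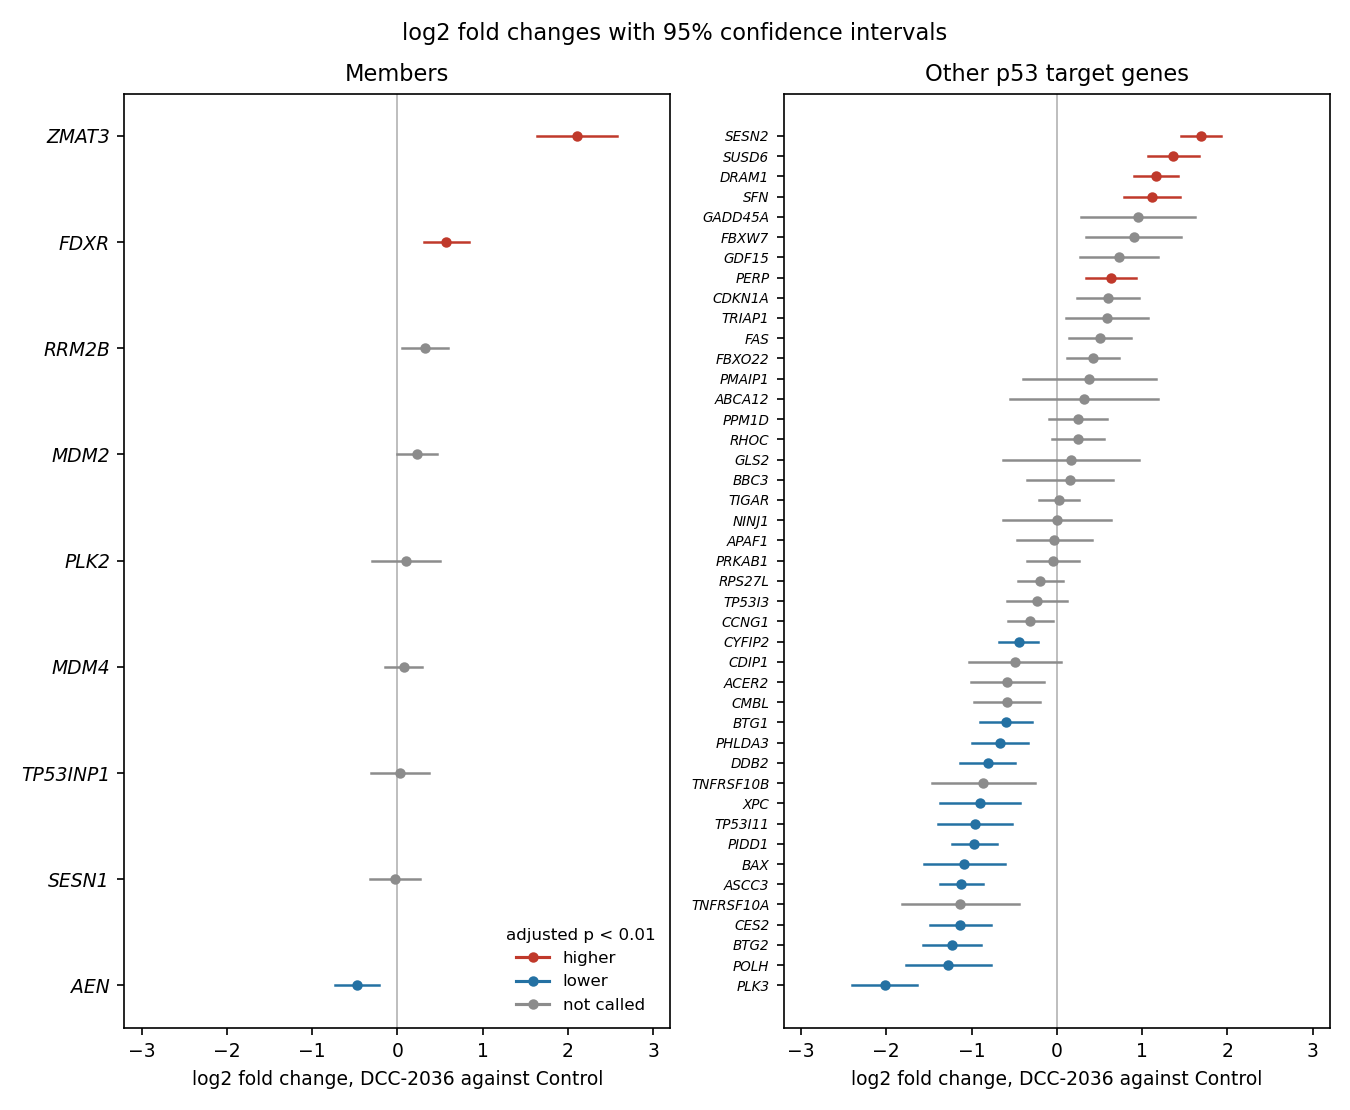
log2 fold changes (DCC-2036 against Control, 3 libraries each) with 95% confidence intervals for the 9 members and for the 43 tested genes among the other p53 targets, ordered by value. Red marks genes called higher and blue genes called lower at an adjusted p under 0.01. ZMAT3 (2.11) and SESN2 (1.69) head their panels, and AEN (-0.47) and PLK3 (-2.02) close them.

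Of 32 regulators of p53, 31 were tested, 6 were higher (19.4%) and 5 were lower (16.1%), with a median log2 fold change of 0.06. The share of higher genes was thus near that of all tested genes (19.2%), and the share of lower genes was below theirs (22.7%). RCHY1, a ubiquitin ligase for p53, went from 336, 345 and 324 to 774, 901 and 1237 (fold change 2.84, adjusted p = 0.00098). TP53BP2, which encodes the p53-binding protein ASPP2, was higher (1.32), as were COP1, another p53 ligase (0.81), and RPL5, a ribosomal protein that binds MDM2 (0.77). USP7, which removes ubiquitin from p53 and MDM2, was also higher (0.70), and so was CREBBP, an acetyltransferase (0.77). PPP1R13L, which encodes the p53 inhibitor iASPP, was the lowest, from 934, 872 and 953 to 249, 179.6 and 82.4 (log2 fold change -2.56, adjusted p = 0.0020). ATM (-1.41) and ATR (-0.65), the kinases that signal DNA damage, were lower, as were the acetyltransferase KAT5 (-1.26) and MTBP (-0.82), which binds MDM2. Without Control replicate 1, 2 or 3 the 11 calls became 3, 3 and 4, and without DCC-2036 replicate 2 they became 5. They became 14 and 13 without DCC-2036 replicate 1 or 3. In the same order of fits, calls among all tested genes moved from 5329 to 2647, 2514, 2517, 2636, 6182 and 5740.

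Genes repressed through p21 and DREAM form another list. All 35 were tested, 0 were higher and 24 (68.6%) were lower by limma, where 19.2% of all tested genes were higher and 22.7% were lower. At an unadjusted p under 0.05, 3 were higher and 24 lower, and of all 12725 tested genes 3887 were higher and 4590 lower. The median log2 fold change was -0.68, and under equal totals it was -0.88. AURKB, a kinase of chromosome segregation, went from 1470.5, 1559 and 1611 to 234, 244 and 283 (log2 fold change -2.61, adjusted p = 0.00018). CDC25C (-2.34), RRM2 (-1.89) and CCNB1 (-1.75) followed. At the other end of the called genes were NEK2 (-0.44), RRM1 (-0.52), BUB1 and CDC25A (both -0.59). Mitotic genes of the list that were not called included KIF23 (0.52), CCNB2 (0.35), PRC1 (0.29) and CDK1 (-0.30). The count of 24 fell to 14, 13 and 14 without Control replicate 1, 2 or 3 and to 13 without DCC-2036 replicate 2. Calls among all tested genes fell in these fits from 5329 to 2647, 2514, 2517 and 2636. The count was 24 without DCC-2036 replicate 1, with 1 higher and 23 lower, and also 24 without DCC-2036 replicate 3. All tested genes then had 6182 and 5740 calls. Other routes than p53 are known to set the RNA of cell cycle genes, and their part was not tested.

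**Figure D4:**
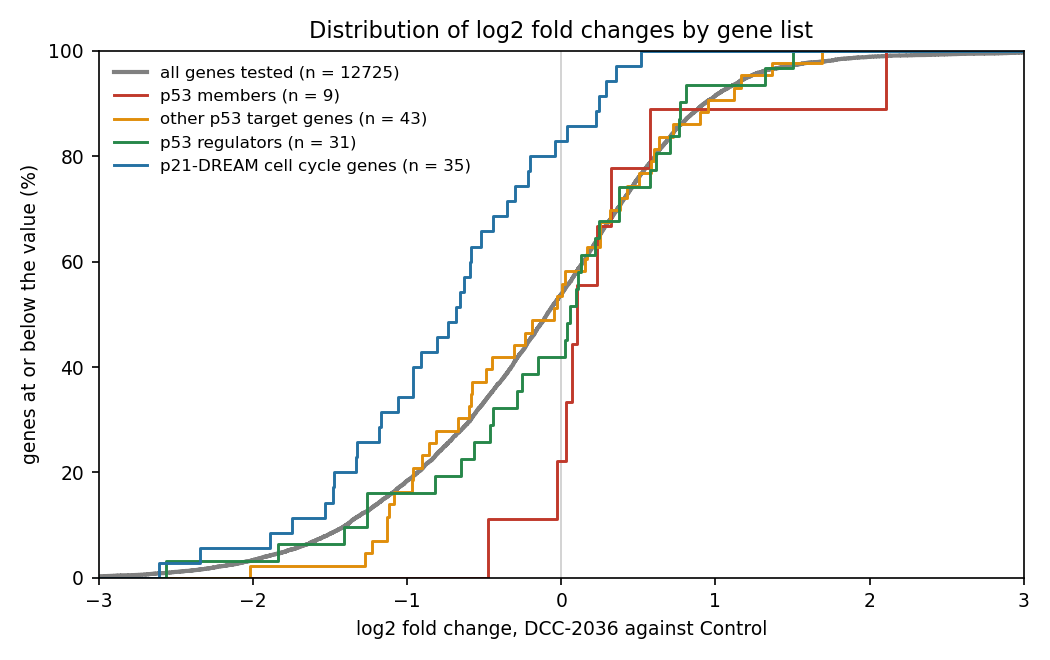
Cumulative share of genes (percent) by log2 fold change, for all 12725 genes tested and for 4 gene lists; the axis is drawn from -3 to 3 and leaves out the few genes beyond it. The curve of the p21-DREAM cell cycle genes lies to the left of all genes (median -0.68 against -0.09), while the other p53 target genes (-0.05) and the p53 regulators (0.06) lie close to it.

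The last list holds paralogs of the members and, for FDXR, its partners FDX1 and FDX2, which are not paralogs. Of its 14 genes 12 were tested, with 3 higher and 6 lower, where 19.2% of all tested genes were higher and 22.7% were lower. The lists share genes. SESN2 and PLK3 were also counted among the other p53 targets, and PLK1 and RRM2 in the p21-DREAM list. CHEK1 is in both the regulator list and the p21-DREAM list. In the sestrin family, SESN2 (1.69) was called higher, and SESN3 (-0.15, adjusted p = 0.537) and SESN1 (-0.03) were not called. For TP53INP2, the paralog of TP53INP1, the values were 175, 196 and 202 in Control and 307, 381 and 382 with DCC-2036 (log2 fold change 0.89, adjusted p = 0.0018). Among the polo-like kinases, PLK3 (-2.02), PLK4 (-1.46) and PLK1 (-0.65) were lower, and PLK2 was not called. RRM2, the S-phase counterpart of RRM2B, went from 10557.9, 11670 and 11843 to 3301, 3242 and 2681 (log2 fold change -1.89). The ferredoxins that FDXR reduces were called in opposite directions, FDX1 higher (1.05) and FDX2 lower (-0.77). ISG20L2, an exonuclease related to AEN, was lower (-1.19), while ISG20 (-0.18) and ZMAT2 (-0.21) were not called, and ZMAT1 and PLK5 were not tested. Differences between a member and its paralog were not tested.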

How the data were processed

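The 6 RNA libraries of LoVo cells were grouped by title into Control and DCC-2036. The deposited table holds a signal per RefSeq transcript (45006 transcripts) with decimals, so the authors deposited adjusted values rather than raw reads. The aligner, genome build, strand use and kind of adjustment are not given in the sources used here, and read depth is unknown. The authors' own fold changes, p-values and q-values, which compare the groups per transcript, were not used.

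Tests used limma 3.58.1 (R 4.3.3) on log2(signal + 1), with 1 transcript per symbol and Benjamini-Hochberg adjustment over all genes tested. The fit was tested on simulated data in which each gene had the same spread in both groups. In the deposited data the SD was larger with DCC-2036 in 77.3% of genes, which the simulation does not cover. Permutation tests were exact (scipy 1.17.1, Python 3.11.15, pandas 2.3.3, numpy 2.4.6; figures with matplotlib 3.10.9). Alternatives changed the scaling, filter, pseudocount, variance model, transcripts, limit and libraries used. Some for the gene lists were chosen after the data had been seen. Overlaps come from GENCODE 29. COP1 and FDX2 were found under older symbols.

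The members and lists were chosen with earlier results of these data known. Values are given for all members, for the 4 highest and 4 lowest called genes of each list, for the paralog list, and for genes among the 5 profiles nearest to MDM2 and to PLK2. Other list genes given with values and the mismatch limit of the full site were chosen after their values or matches were seen. The set of promoter windows used held none under the symbols TP53INP1 and RRM2B, so these genes were not searched.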

Additional observations from a re-analysis of the deposited data

How the results depend on the processing

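ZMAT3 kept its call under every alternative, and MDM2 was never called. With libraries scaled to equal totals, FDXR (0.38) was no longer called, MDM4 (-0.13), PLK2 (-0.10) and TP53INP1 (-0.17) changed sign, and 1 member was higher. With median-of-ratios scaling, AEN (-0.40) was no longer called, SESN1 (0.041) changed sign, and 0 members were lower. With no filter, FDXR (0.57) and AEN (-0.47) kept their values but lost their calls, which left 1 member higher and 0 lower. When a log2 fold change beyond 1 in either direction was also asked for, 1 member was higher, 0 were lower, and 944 tested genes were higher and 1930 lower. At an adjusted p under 0.05, RRM2B (0.32) was called, with 30 other p53 targets, 20 regulators and 27 p21-DREAM genes, and 3630 tested genes were higher and 4290 lower. With all transcripts tested, 6379 were higher and 7250 lower.

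Leaving out 1 library at a time gave ranges of -0.53 to -0.41 for AEN, 0.50 to 0.63 for FDXR, -0.068 to 0.22 for PLK2, -0.089 to 0.048 for SESN1 and -0.051 to 0.16 for TP53INP1. The counts ranged from 1 to 2 members higher and 0 to 1 lower, 9 to 23 other targets, 13 to 24 p21-DREAM genes, 3 to 14 regulators, 928 to 2675 tested genes higher and 1514 to 3507 lower. These fits have fewer libraries.

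The groups share replicate numbers. Correlations of same-numbered libraries were 0.08, -0.04 and -0.00, and not every library correlated best with its own number, so the numbers were not taken as pairs. With the replicate block, 1 member was higher and 0 were lower, FDXR (0.57) and AEN (-0.47) were not called, and 10 other targets, 15 p21-DREAM genes and 5 regulators were called. Of all tested genes, 1202 were then higher and 1909 lower.

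The cause of the other changes was not tested. Depth is unknown, so counting noise at low values cannot be separated from other spread, and with 3 libraries per group small changes are not detectable.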

Other observations

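Among the DCC-2036 libraries, replicate 3 was the farthest from the Control mean in 60.4% of all tested genes, replicate 1 in 20.1% and replicate 2 in 19.5%. Among the members, replicate 1 was the farthest in 5 (MDM2, MDM4, TP53INP1, RRM2B and AEN), replicate 2 in 1 (SESN1) and replicate 3 in 3 (ZMAT3, FDXR and PLK2). It was replicate 3 in 26 of 31 p53 regulators, 27 of 43 other p53 targets and 23 of 35 p21-DREAM genes. The median SD of a gene on the log2 scale was 0.101 in Control and 0.228 with DCC-2036 (n = 3 each), and it was larger with DCC-2036 in 77.3% of genes.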
